A study of Mus musculus with 48 samples.

Results

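Injured mouse cortex collected 24 h after permanent middle cerebral artery occlusion (MCAO) was compared with cortex collected 12 h after it. The comparison used 9 of the 48 bulk RNA libraries of the series, MCAO 24 h replicates A to D and MCAO 12 h replicates A to E, and covered every gene without the spike-in and summary rows. Of the 46983 genes listed, 19970 had more than 10 counts over the 48 libraries and were tested. The mice were 3-month-old C57Black/6 males, and no transgene, deletion or drug separated the groups. In MCAO mice the artery was coagulated through a small hole in the skull under isoflurane, which leaves a small infarct. Sham mice had the same operation without coagulation, with 4 libraries at 12 h (Sham 12 h) and 4 at 24 h (Sham 24 h), and served as a check of time after surgery without the occlusion. The labels and the methods of the study describe the tissue as injured cortex that holds affected and unaffected parts. The paper's Results instead describe the bulk samples as almost the whole hemisphere on the lesion side, so tissue beneath the cortex may be included. Each library is labelled as a separate sample, with nothing in the labels on whether days or cages were shared.

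Permanent loss of flow kills neurons and glia in the core of the artery's territory within hours, while cells around it stay alive and react. Heat shock, immediate early and inflammatory genes are known to be induced first, and astrocytes and microglia then become reactive. Neutrophils are the first blood cells to enter the tissue, drawn by chemokines such as *Cxcl2*, and monocytes follow them. In bulk tissue a lower level can come from fewer cells of a type or from less RNA in each of them, and the libraries cannot tell these apart.

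The gene counts ranged from 1699600 to 2780229 per library at MCAO 12 h, from 1599847 to 2361072 at MCAO 24 h and from 1590398 to 2657324 in the shams of both times. Levels are given as CPM, in the order of the replicate letters. CPM are counts scaled to 1000000 gene counts in each library, with library sizes adjusted by TMM normalization. The tissue was checked with marker genes. *Slc17a7*, the glutamate transporter of cortical excitatory neurons, was present in all 9 libraries at 288 to 668 CPM at 12 h and 230.4 to 560.4 CPM at 24 h, and *Gfap*, *Aqp4*, *Cx3cr1*, *Mbp* and *Cldn5*, which mark glia and vessels, were also present in every one. *Ttr*, the defining gene of choroid plexus, was at 0 in the 4 MCAO 24 h libraries and reached 37.1 CPM in 1 MCAO 12 h library. The T cell genes *Cd3d*, *Cd3e* and *Cd3g* did not pass the filter, nor did the neutrophil genes *Elane* and *Ly6g*.

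Of the 9 libraries, 3 stood apart from their groups. MCAO 12 h E held the highest level of all 7 neutrophil genes of at least 2 CPM and of 20 of 21 interferon-stimulated genes in its group. MCAO 12 h C held the highest level of 16 of 18 heat shock genes. MCAO 24 h D held the highest level of all 14 myelin genes and all 11 striatal genes, with *Drd1* at 492 CPM. MCAO 12 h D was in turn the highest of its group for 10 of the 14 myelin and 10 of the 11 striatal genes.

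Few genes differed between the times when taken one by one. The pseudogenes *Tmem181b-ps* and *Gm10039* were among the 3 genes called lower at 24 h, and no gene was called higher. Among gene groups the median log2 fold change was -1.67 for neutrophil genes, -0.61 for genes of interleukin-1 and TNF signalling, 0.49 for genes of resting microglia and 0.81 for myelin genes, with no member of these called. The first 2 were -0.66 and -0.12 without MCAO 12 h E, and that of myelin genes was 0.38 without MCAO 24 h D.

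A gene counted as called if its log2 fold change was over 0.58 in size and its p from the quasi-likelihood test of edgeR, adjusted by Benjamini-Hochberg, was under 0.01. Between MCAO 24 h and MCAO 12 h, 0 genes were called higher and 3 lower, or 0.0% and 0.015% of the genes tested. At an adjusted p under 0.05 with no limit on the fold change, 1 gene (0.00501%) was higher and 6 (0.03%) lower, 0.0351% together. At an unadjusted p under 0.05, 642 genes (3.21%) were higher and 772 (3.87%) lower, 7.08% together. Scaling to the summed spike-in counts in place of TMM moved the median log2 fold change of all genes from -0.005 to 0.18 and gave 1405 (7.04%) higher and 255 (1.28%) lower. DESeq2 called 1 gene higher and 6 lower, and gave 543 higher and 721 lower at an unadjusted p under 0.05. The groups did not overlap for 114 higher (0.822%) and 132 lower genes (0.951%) of the 13874 with a mean of at least 2 CPM, 1.77% together. For genes above 100 CPM the median standard error of the log2 fold change was 0.16, so that the 95% interval reached 0.32 to each side. For genes of 10 to 100 CPM the interval reached 0.47 to each side, and for genes of 2 to 10 CPM 0.97. A change of less than these widths could not be told from 0 in most genes of that level.

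*Tmem181b-ps* (chr17:6438524-6467022, GRCm38), a transcribed pseudogene, was all but absent at 24 h. It was at 29.3, 25.2, 17.2, 12.3 and 38.7 CPM at 12 h and at 0.42, 0, 0 and 0 CPM at 24 h, a single read in 4 libraries. The ratio of the pooled levels was 211.1 with a 95% counting interval from 37.5 to 8372.3 (adjusted p 1.64e-09 by edgeR). The 39 other libraries lay between 4.46 and 56.0 CPM. It was called lower under each of the 18 alternative settings run, and also called lower than in Sham 24 h, with a log2 fold change of -6.70.

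*Gm10039* (chr11:100361716-100362126), a processed pseudogene, was called lower, with 38.9, 0.49, 23.99, 0.59 and 42.3 CPM at 12 h and 0.42, 0, 0 and 0 CPM at 24 h (adjusted p 0.00107). Only the MCAO 12 h libraries A, C and E were high, and the other 39 libraries of the series held 0 to 1.78 CPM. The same 3 libraries were the high ones for the processed pseudogenes *Gm12892* (16.7, 0, 27.1, 1.76 and 41.1 CPM at 12 h and at most 1.27 at 24 h) and *Gm15772* (35.6, 0, 10.9, 0 and 27.4 CPM and at most 0.93). *Gm12892* had an adjusted p of 0.0212 and *Gm15772* of 0.117. Processed pseudogenes are near copies of a parent messenger RNA, so the place these reads came from is uncertain. *Gm10039* was called in 9 of 18 settings. It was not called without MCAO 12 h A or without any one of the 4 MCAO 24 h libraries (adjusted p 0.0103 to 0.0221), and over the 17 settings that kept it the adjusted p ranged from 1.18e-05 to 0.478.

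Among the other genes with an adjusted p under 0.05 were 2 lower and 1 higher. The transcribed processed pseudogene *4930526A20Rik* (chr17:28075050-28076677) was at 22.99, 28.6, 22.4, 48.8 and 22.04 CPM at 12 h and at 2.97, 2.34, 2.12 and 4.89 CPM at 24 h, with a log2 fold change of -3.25 ± 0.64 (SE, adjusted p 0.0212). Its MCAO 12 h level also lay above the 0.59 to 4.72 CPM of the shams and was called higher than Sham 12 h (3.48, adjusted p 0.00147). *Sntn* (chr14:13670876-13683148), which encodes sentan, a protein of the tips of motile cilia, was at 12.98, 7.28, 3.13, 2.35 and 5.36 CPM at 12 h and at 0 in all 4 libraries at 24 h, at least 19.4-fold lower (adjusted p 0.0228). It was at 0 in 12 of the 39 other libraries too, so its absence was not particular to MCAO 24 h.

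*Ubald1* (chr16:4874778-4880315), a gene of little known function, was the only gene higher at 24 h with an adjusted p under 0.05. Its level was 128, 121, 98.6, 95.9 and 107 CPM at 12 h and 142, 185, 169.9 and 180.3 CPM at 24 h, with no overlap, and the log2 fold change was 0.62 ± 0.13 (adjusted p 0.0411). Sham 12 h, at 115 to 148 CPM, overlapped both groups. Sham 24 h, at 117 to 138 CPM, overlapped MCAO 12 h and lay below MCAO 24 h. The log2 fold change of MCAO 24 h over Sham 24 h was 0.40 (adjusted p 0.267 by edgeR), so it was not called. Over the alternatives the adjusted p between the MCAO groups ranged from 0.00375 to 0.986.

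**Figure D1:**
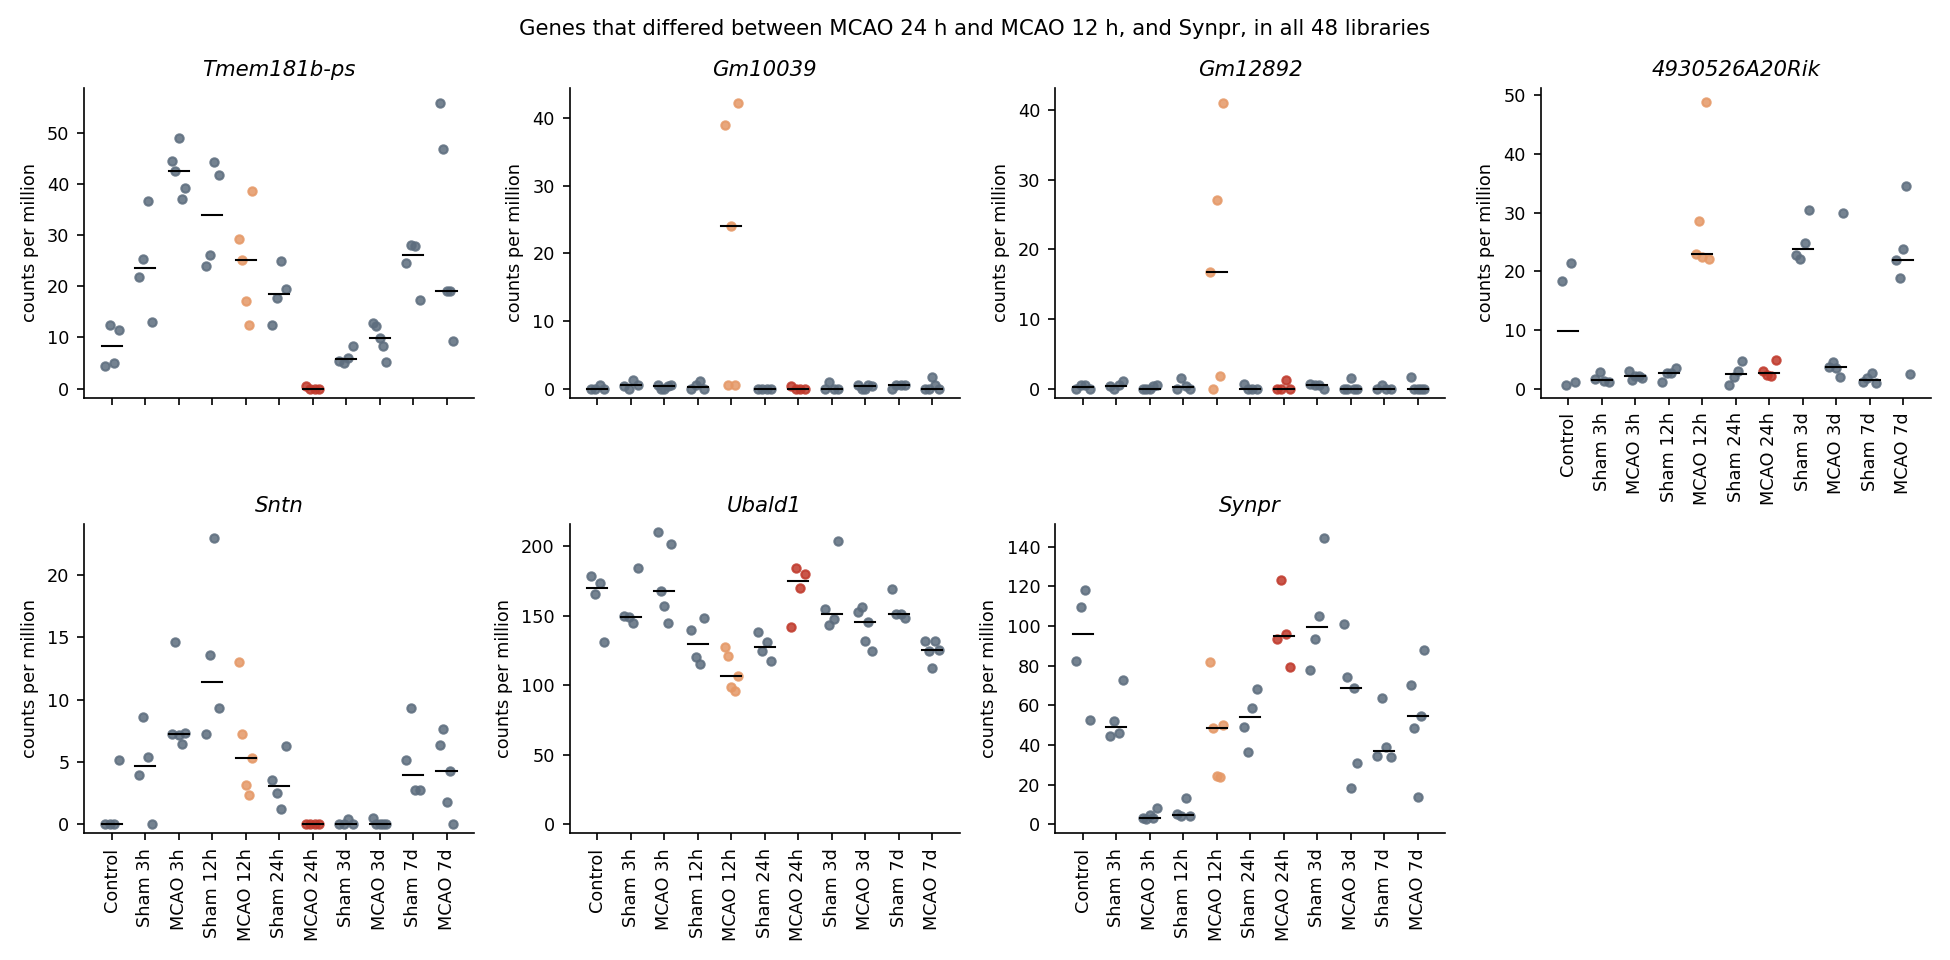
Levels of 7 genes in CPM (y axis) in each of the 48 libraries, ordered by the 11 groups (x axis), with MCAO 12 h in orange, MCAO 24 h in red and a bar at each group's median. Tmem181b-ps lies at 0.42 CPM or less in the 4 MCAO 24 h libraries and at 4.46 CPM or more in every other library, while the other genes are low or high in some further groups as well.

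The genes of smallest p that did not pass were described by their values. *Ly86*, which encodes MD-1, a partner of a Toll-like receptor homologue on myeloid cells, was at 2.22, 2.43, 3.13, 4.71 and 2.38 CPM at 12 h and at 10.2, 11.7, 7.63 and 14.1 CPM at 24 h. All 4 libraries at 24 h lay above the 5 at 12 h and above the shams (1.68 to 4.88 CPM), with a log2 fold change of 1.86 ± 0.49 and an adjusted p of 0.386. *Flywch2* (1.13, adjusted p 0.386) and *Eepd1* (0.78, adjusted p 0.421) also had groups without overlap, as had *Gm15446* (1.83, adjusted p 0.445). In the other direction *Dmxl1*, which takes part in the assembly of the proton pump of vesicles, was at 68.2, 71.3, 90.2, 69.4 and 58.4 CPM at 12 h and at 39.1, 45.3, 58.04 and 44.6 CPM at 24 h (log2 fold change -0.61, adjusted p 0.185). Its 2 groups did not overlap, and the log2 fold change of Sham 24 h over Sham 12 h was -0.34 (adjusted p 1.0).

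Against the sham of the same time, 69 genes (0.346% of those tested) were called higher and 13 (0.0651%) lower at MCAO 12 h, 0.411% together. At MCAO 24 h 16 genes (0.0801%) were called higher and 2 (0.01%) lower, 0.0901% together. The genes called at 12 h kept their direction at 24 h in 68 of 69 cases for the higher ones, with a median log2 fold change of 2.27 at 12 h and 1.77 at 24 h, and in 12 of 13 cases for the lower ones. The medians at 12 h are of genes called at that time, which raises them. The count of 82 at 12 h lay between 21 and 42 without any one of MCAO 12 h C and E and the 4 Sham 12 h libraries. The count of 18 at 24 h lay between 6 and 11 without MCAO 24 h D or any one of the 4 Sham 24 h libraries. The genes called higher at both times numbered 14, which was 20.3% of the 69 and 87.5% of the 16, and *Tmem181b-ps* was among the 2 called lower at 24 h. Between the 2 MCAO groups the log2 fold changes of the 14 ran from -0.62 to 0.91, and none was called.

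The 14 genes held astrocyte, acute phase and chemokine genes. *Gfap*, the intermediate filament of reactive astrocytes, was at 192, 438, 421, 468 and 262 CPM at 12 h and 473, 398, 367 and 820.1 CPM at 24 h, against 22.9 to 101 CPM in the shams. It rose over sham at both times, with log2 fold changes of 2.67 (adjusted p 5.6e-05) and 3.16 (adjusted p 2.2e-06), while the difference between the times was 0.53 ± 0.34. *Serpina3n*, a secreted protease inhibitor of the acute phase, was 2.94 log2 units above sham at 12 h and 3.33 at 24 h. *A2m*, another protease inhibitor, stood 5.32 and 3.89 log2 units above sham, and *Timp1*, an inhibitor of matrix metalloproteinases, 4.28 and 4.60. Their levels overlapped between the times: *Timp1* was at 21.1, 57.8, 78.8, 53.5 and 103 CPM at 12 h and at 21.7, 54.2, 27.5 and 60.5 CPM at 24 h.

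*Ccl12*, a chemokine that attracts monocytes, was at 2.22, 12.1, 33.9, 1.18 and 32.8 CPM at 12 h and 11.9, 29.9, 20.8 and 33.0 CPM at 24 h, with 0 to 1.85 CPM in the shams. It was called higher than sham at both times, and the low MCAO 12 h libraries A and D lay below all 4 libraries at 24 h. *Tubb6*, a beta-tubulin, had log2 fold changes over sham of 6.03 at 12 h and 4.28 at 24 h, and *Mt1*, a metal-binding stress protein, of 1.05 and 1.00. For *Tnfrsf1a*, the main receptor of TNF, they were 2.11 and 2.12, and for *S100a4*, a calcium-binding protein of migrating cells, 2.02 and 2.49.

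The lists of genes below were described by the number of members with an unadjusted p under 0.05 in each direction, beside the 3.21% and 3.87% of all genes, and by their median log2 fold change, beside -0.005 for all genes. No member of the 46 lists was called.

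Among 14 neutrophil genes tested, 3 were lower at 24 h at an unadjusted p under 0.05 and 0 higher, and the median log2 fold change was -1.67. Only 7 of the 14 had a mean of at least 2 CPM, so the median also rested on genes of few reads. For all genes below 2 CPM the median standard error was 1.17 log2 units. *S100a9*, a subunit of the calprotectin stored in neutrophils, was at 3.71, 8.25, 77.2, 68.2 and 903 CPM at 12 h and 16.6, 12.2, 24.99 and 20.8 CPM at 24 h (log2 fold change -3.50 ± 0.90, adjusted p 0.386). *S100a8*, its partner, was at 7.05, 16.02, 85.02, 106 and 759 CPM at 12 h and 11.9, 18.2, 24.6 and 34.2 CPM at 24 h (adjusted p 0.436). For both genes the MCAO 12 h libraries lay on both sides of the 24 h range, with A and B below or within it and C, D and E above it. The summed level of the 14 genes was 18.9, 55.3, 211, 191 and 1797 CPM at 12 h and 50.98, 50.01, 71.6 and 92.9 CPM at 24 h, with 4.07 to 11.4 CPM in the shams. Every MCAO library of both times was therefore above the shams. Without MCAO 12 h E, 0 of the 14 were lower and the median was -0.66, and with the replicate letter as a block 1 was lower. Against Sham 12 h, *S100a8* and *S100a9* were called higher at 12 h, with log2 fold changes of 7.51 and 8.42, and not at 24 h (3.28 and 2.95, adjusted p 0.382 and 0.495). The difference between those effects did not pass (adjusted p 1.0 and 0.973).

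Of 15 CXC chemokines and receptors, 2 were lower and 1 higher. *Cxcl2*, which attracts neutrophils, was at 0, 2.91, 29.2, 12.9 and 366 CPM at 12 h and at 2.12, 1.40, 1.69 and 4.89 CPM at 24 h (log2 fold change -5.05 ± 1.24, adjusted p 0.314). The level at 12 h ran from none in A to the 366 CPM of E, and at 24 h the 4 libraries lay within a few CPM of each other. *Cxcl3* was the other lower one, and *Cx3cl1*, the neuronal ligand of the microglial receptor *Cx3cr1*, the higher one (log2 fold change 0.51, adjusted p 0.679). The counts became 1 higher and 0 lower without MCAO 12 h E, and 2 higher and 1 lower with the block. Over the single libraries left out they ranged from 0 to 1 higher and 0 to 2 lower.

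Of 19 genes of interleukin-1, TNF and NF-kB signalling, 3 were lower and 0 higher, with a median of -0.61. *Il1b*, the cytokine interleukin-1 beta, was at 4.08, 0.97, 17.2, 18.8 and 233 CPM at 12 h and 5.52, 3.74, 3.39 and 6.11 CPM at 24 h (log2 fold change -3.53, adjusted p 0.421). *Il1rn*, which encodes the natural antagonist of its receptor, was at 0, 2.43, 20.9, 9.41 and 123 CPM at 12 h and 2.12, 1.40, 2.12 and 1.22 CPM at 24 h (adjusted p 0.552). *Nfkbia*, an inhibitor and target of NF-kB, was at 122, 188, 264, 171 and 559.8 CPM at 12 h and 140.2, 168, 139 and 178 CPM at 24 h (adjusted p 0.659). MCAO 12 h E was the highest library for all 3, MCAO 12 h A or B the lowest, and 0 of the 19 were lower without MCAO 12 h E, with a median of -0.12. The median was -0.22 without MCAO 12 h C, -0.22 with the block, where 2 were lower, and -0.27 with filterByExpr.

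Among 16 CC chemokines and receptors, 1 was higher and 1 lower, and the lower one was *Ccl3* (log2 fold change -2.38, adjusted p 0.659). *Ccl3* was at 0, 2.43, 15.1, 11.2 and 58.96 CPM at 12 h and 0.85, 0, 6.35 and 6.11 CPM at 24 h. *Ccl4*, a close relative of *Ccl3*, was at 0.37, 2.91, 28.7, 12.9 and 47.05 CPM at 12 h and 2.12, 6.54, 6.78 and 11 CPM at 24 h, with an adjusted p of 0.738. Leaving out any one of the 9 libraries changed which of the 16 counted, with 0 or 1 higher and 0 to 2 lower. Of 12 genes of blood-derived monocytes and macrophages 2 were lower, *Ms4a4c* and *Thbs1*, a matrix protein of platelets and myeloid cells (log2 fold change -2.77, adjusted p 0.562), and 0 without MCAO 12 h E. The median of that list was -0.52, and 0.25 without that library.

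Of 25 interferon-stimulated genes, 1 was lower and 0 higher, with a median of -0.20. *Rsad2*, the antiviral enzyme viperin, was at 3.34, 3.40, 17.2, 8.24 and 219 CPM at 12 h and 6.37, 12.2, 9.32 and 14.7 CPM at 24 h (log2 fold change -2.23, adjusted p 0.499). Without MCAO 12 h E its log2 fold change was 0.42, the list had 3 higher and 0 lower, and its median was 0.36. With the block 0 members of the list were lower and the median was 0.02. With spike-in scaling the median was 0.02 as well, below the median of all genes under that scaling. The direction of this list between the times thus rested on 1 library.

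**Figure D2:**
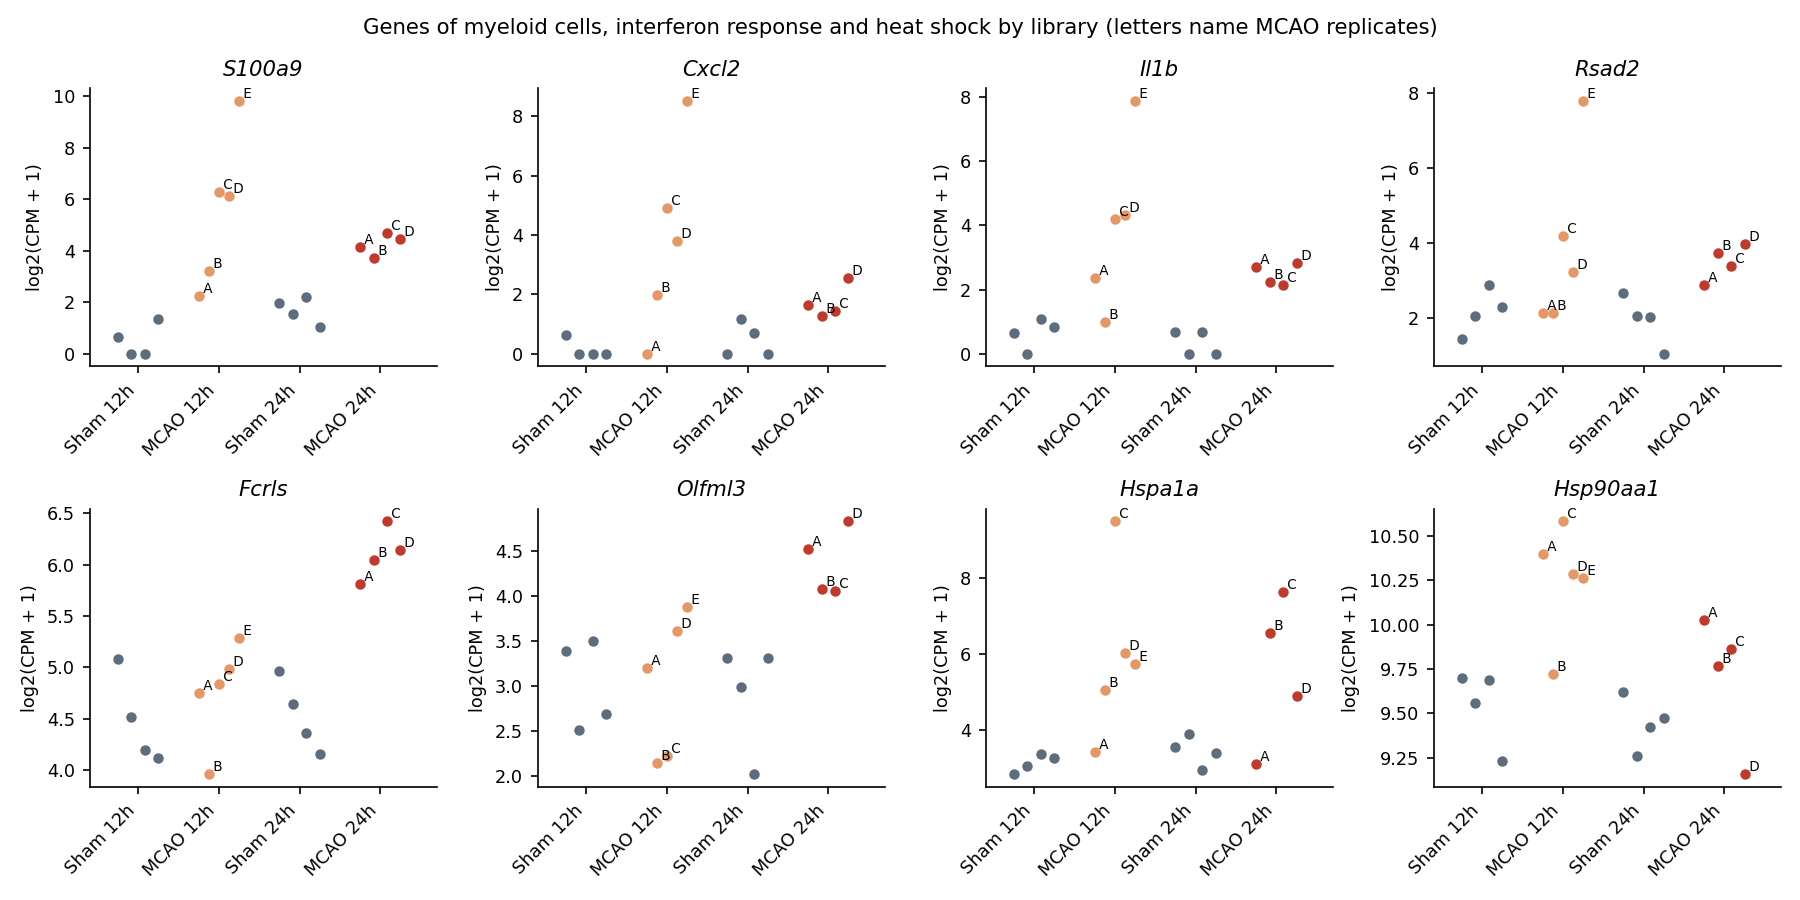
Levels of 8 genes as log2(CPM + 1) (y axis) in Sham 12 h, MCAO 12 h, Sham 24 h and MCAO 24 h (x axis), 1 point per library, with the replicate letter at each MCAO point. MCAO 12 h E is the highest point for S100a9, Cxcl2, Il1b and Rsad2 and MCAO 12 h C for Hspa1a, while Fcrls and Olfml3 lie higher in the 4 MCAO 24 h libraries than in the 5 MCAO 12 h libraries.

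Genes of resting microglia lay higher at 24 h, none of them called. Of the 12 tested, 3 were higher at an unadjusted p under 0.05 and 0 lower, 11 log2 fold changes were positive and the median was 0.49. The summed level was 477, 348, 216, 499 and 395 CPM at 12 h, 644, 494, 588 and 644 CPM at 24 h, and 332 to 500 CPM in the shams. Only MCAO 24 h B lay within the range of the other 13 libraries. *Fcrls*, a microglial member of the Fc receptor family, was at 25.96, 14.6, 27.6, 30.6 and 38.1 CPM at 12 h and 55.2, 64.96, 84.7 and 69.7 CPM at 24 h (log2 fold change 1.33 ± 0.41, adjusted p 0.499). *Olfml3*, a secreted microglial protein, was at 8.16, 3.40, 3.65, 11.2 and 13.7 CPM at 12 h and 22.1, 15.9, 15.7 and 27.5 CPM at 24 h (1.35 ± 0.45, adjusted p 0.552). Neither *Fcrls* nor *Olfml3* overlapped between the times, and their MCAO 12 h levels were within or close to the shams (16.4 to 32.96 and 3.05 to 10.3 CPM). Over the whole list the median log2 fold change against sham was -0.50 at 12 h and 0.24 at 24 h. *P2ry12*, a purine receptor of resting microglia, was called lower than Sham 12 h, with 10.4, 5.34, 1.56, 0.59 and 4.17 CPM at MCAO 12 h against 8.38, 17.7, 27.4 and 10.9 CPM (log2 fold change -1.78, adjusted p 0.00927), and was the only member called against sham at either time. That call was kept in 5 of 18 alternative settings, with an adjusted p from 0.000556 to 0.24. *P2ry12* lay between 3.39 and 8.5 CPM at MCAO 24 h and between 13.1 and 15.9 CPM in Sham 24 h, without overlap. The count of members higher between the times stayed between 3 and 5 when any one MCAO library was left out, and the median was 0.84 without MCAO 12 h A and 0.32 without MCAO 12 h C.

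*Cx3cr1*, the fractalkine receptor of microglia, was at 212, 158, 90.8, 253 and 138 CPM at 12 h and 239, 205, 239 and 242 CPM at 24 h, with an adjusted p of 0.771. None of 18 genes of reactive microglia had an unadjusted p under 0.05, and their median was 0.22. Of 14 complement genes tested, 2 were higher and 0 lower. *C1qc*, a chain of the recognition unit of the classical pathway, was at 65.6, 49.99, 32.9, 26.5 and 47.6 CPM at 12 h and 103, 81.3, 77.95 and 97.8 CPM at 24 h, without overlap (log2 fold change 1.00 ± 0.34, adjusted p 0.562). *C4b*, which acts next in that pathway, was at 15.6, 14.1, 18.8, 32.9 and 24.4 CPM at 12 h and 43.3, 30.4, 23.7 and 84.3 CPM at 24 h (1.10 ± 0.35, adjusted p 0.549), though its reads may be shared with a near-identical copy. Leaving out single libraries gave 1 to 3 complement genes higher, with 1 without MCAO 24 h D.

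Of 20 genes of reactive astrocytes none was higher or lower, with a median of 0.29, 2 were higher with the block and 3 without MCAO 12 h C. Their summed level was 396 to 1103 CPM at 12 h and 753 to 1561 CPM at 24 h, and 160.4 to 227 CPM in the shams. Of 14 genes of resting astrocytes, 2 were higher and 1 lower, and 0 were higher without MCAO 12 h B, MCAO 24 h A or MCAO 24 h D. *Aqp4*, the water channel of their end-feet, was at 86.8, 58.2, 79.3, 57.6 and 95.3 CPM at 12 h and 114, 111, 69.5 and 132 CPM at 24 h (log2 fold change 0.50, adjusted p 0.664). *Gjb6*, the gap junction protein connexin 30, was at 80.1, 65.04, 62.1, 93.5 and 52.4 CPM at 12 h and 47.2, 41.1, 49.1 and 46.4 CPM at 24 h, without overlap (-0.62, adjusted p 0.62), and the shams held 42.1 to 94.96 CPM. *Slc4a4*, a bicarbonate transporter, was the other higher one.

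Heat shock genes encode chaperones that bind unfolded proteins and are switched on by heat shock factor 1, which binds repeats of the bases GAA and TTC. Of 18 such genes, 4 were lower at 24 h and 0 higher, 14 log2 fold changes were negative and the median was -0.20. The 4 were *Hsp90aa1*, *Hsp90ab1*, *Dnajb1* and *Hsph1*. *Hsp90aa1*, the inducible form of the HSP90 chaperone, was at 1347, 845, 1531, 1249 and 1229 CPM at 12 h and 1043, 869.8, 929 and 570.1 CPM at 24 h (log2 fold change -0.54 ± 0.16, adjusted p 0.476). The constitutive form *Hsp90ab1* was at 3813, 2573, 2995, 2998 and 3486 CPM at 12 h and 3049, 2489, 2468 and 1986 CPM at 24 h (-0.35 ± 0.12, adjusted p 0.562). Both were called higher than sham at 12 h (0.72 and 0.61) and not at 24 h (0.29 and 0.26), and the difference of those effects did not pass (adjusted p 1.0 and 0.977).

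*Dnajb1*, a co-chaperone of HSP70, was at 73.4, 61.2, 236, 81.2 and 78.02 CPM at 12 h and 45.04, 78.05, 96.6 and 30.6 CPM at 24 h (log2 fold change -0.75, adjusted p 0.655), and *Hsph1*, which exchanges the nucleotide of HSP70, at 515, 446, 1619.6, 786 and 450.2 CPM at 12 h and 321, 578, 809 and 251 CPM at 24 h (-0.64, adjusted p 0.659). *Hspa1a*, the most inducible HSP70 gene, was at 9.64, 32.5, 723, 64.1 and 52.4 CPM at 12 h and 7.65, 93.5, 197 and 28.7 CPM at 24 h, with 6.14 to 13.9 CPM in the shams. Its log2 fold change was -1.10 ± 0.64 (adjusted p 0.742) and turned to 1.08 without MCAO 12 h C, and its near-identical copy *Hspa1b* may share its reads. Without MCAO 12 h C the list had 5 higher and 2 lower with a median of 0.03. It had 2 lower without MCAO 24 h D and 8 lower without MCAO 24 h C. With spike-in scaling the list had 0 of each with a median of 0.01, still below the median of all genes under that scaling. The lower median of the list at 24 h thus rested on 1 library, and the counts of its members also on the scaling. *Hsp90aa1* (-0.65 to -0.32) and *Hsp90ab1* (-0.46 to -0.14) stayed negative over the 18 alternative settings, and neither was called in any.

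The promoters of 3 of these genes are shown because the heat shock element is what the group is known to share. The capitals mark GAANNTTC, the shortest form of the element, which reads the same on both strands. The sequences are from RefSeq on GRCm38.p6, from 250 bases before to 50 after the start of the gene, 5′ to 3′ on the gene's strand: *Dnajb1* at chr8:83607925-83608224 on the plus strand, *Hsph1* at chr5:149636287-149636586 on the minus strand and *Hspa1a* at chr17:34972107-34972406 on the minus strand.
Dnajb1: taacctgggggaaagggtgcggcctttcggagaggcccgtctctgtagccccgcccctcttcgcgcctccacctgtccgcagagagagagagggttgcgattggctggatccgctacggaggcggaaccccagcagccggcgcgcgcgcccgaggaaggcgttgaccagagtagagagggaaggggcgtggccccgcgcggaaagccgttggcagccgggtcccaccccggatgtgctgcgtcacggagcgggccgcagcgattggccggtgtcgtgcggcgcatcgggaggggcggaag
Hsph1: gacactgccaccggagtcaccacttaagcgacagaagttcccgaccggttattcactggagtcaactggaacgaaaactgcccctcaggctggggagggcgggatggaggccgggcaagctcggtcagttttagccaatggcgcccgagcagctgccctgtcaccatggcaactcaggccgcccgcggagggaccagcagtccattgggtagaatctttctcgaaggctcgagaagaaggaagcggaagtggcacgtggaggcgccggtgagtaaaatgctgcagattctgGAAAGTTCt
Hspa1a: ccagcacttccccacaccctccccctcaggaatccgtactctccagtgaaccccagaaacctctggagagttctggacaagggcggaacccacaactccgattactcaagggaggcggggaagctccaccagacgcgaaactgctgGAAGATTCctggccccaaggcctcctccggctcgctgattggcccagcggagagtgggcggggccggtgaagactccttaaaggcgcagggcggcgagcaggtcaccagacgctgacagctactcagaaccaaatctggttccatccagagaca
The *Hsph1* and *Hspa1a* windows each held GAANNTTC once, and the *Dnajb1* window held 0. Of the 14 heat shock genes with a promoter in the table, 9 held it (64.3%), against 5.82% of the 13079 promoters of genes tested. Among all genes lower at 24 h at an unadjusted p under 0.05, 4.98% held it, and among those higher 4.69%. This form was thus no more common in either than in all promoters. Likewise 11 of 18 promoters of interferon-stimulated genes (61.1%) held GAAANNGAA, the core of the interferon response element, against 7.26% of all, 7.47% of the lower and 6.7% of the higher genes.

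Other stress lists held few genes with an unadjusted p under 0.05. None of 20 genes of the endoplasmic reticulum stress and integrated stress responses, of 14 p53 targets or of 7 metallothioneins and zinc transporters had one, and the medians were 0.03, -0.08 and -0.13. Of 15 genes of the NRF2 response and heme handling, *Tfrc*, the transferrin receptor that takes up iron, was higher, at 43.4, 58.2, 69.4, 42.9 and 45.9 CPM at 12 h and 70.1, 79.5, 89.8 and 78.2 CPM at 24 h without overlap (log2 fold change 0.61, adjusted p 0.564). *Hmox1*, the heme-degrading enzyme, was at 4.45, 16.99, 79.3, 21.8 and 17.9 CPM at 12 h and 5.10, 21.97, 26.7 and 34.2 CPM at 24 h, with a log2 fold change of -0.36 that turned to 0.54 without MCAO 12 h C. Of 20 targets of hypoxia-inducible factor, *Ndrg1* was higher (0.50, adjusted p 0.616), and the median was 0.01.

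Oligodendrocyte and striatal genes lay higher at 24 h, and most of all in 1 library. Of 14 myelin genes, 9 were higher and 0 lower, all 14 log2 fold changes were positive and the median was 0.81. *Mog*, a surface protein of myelin, was at 14.8, 9.71, 10.9, 12.3 and 10.7 CPM at 12 h and 31.4, 9.81, 20.8 and 54.4 CPM at 24 h (log2 fold change 1.28 ± 0.35, adjusted p 0.444). *Mbp*, myelin basic protein, was at 477, 769, 901, 703 and 435 CPM at 12 h and 1042, 515, 821 and 2212 CPM at 24 h, and *Trf*, the transferrin made by oligodendrocytes, at 31.5, 66.01, 126, 133 and 51.2 CPM at 12 h and 134, 91.1, 159 and 479 CPM at 24 h. MCAO 24 h D was the highest in all 3. MCAO 24 h B lay within the 12 h range for all 3, and MCAO 24 h C for *Mbp*. Without MCAO 24 h D 1 of the 14 was higher and the median was 0.38. The median of the shams between the same times was -0.23.

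Of 11 genes of striatal projection neurons, 5 were higher and 0 lower, with a median of 1.57. *Penk*, the enkephalin precursor, was at 100.1, 69.4, 48.5, 76.5 and 141 CPM at 12 h and 520.5, 130.4, 21.2 and 888 CPM at 24 h (log2 fold change 2.16 ± 0.70, adjusted p 0.552). *Tac1*, the substance P precursor, was at 28.6, 27.2, 5.22, 74.7 and 23.8 CPM at 12 h and 173, 22.4, 25.4 and 328 CPM at 24 h (adjusted p 0.552), and *Drd1*, the dopamine receptor D1, at 59.3, 45.1, 19.8, 218 and 54.8 CPM at 12 h and 176, 52.4, 33.04 and 492 CPM at 24 h (adjusted p 0.714). The levels of *Penk* and *Tac1* were highest in MCAO 24 h A and D, *Drd1* was higher in MCAO 12 h D than in MCAO 24 h A, and MCAO 24 h B and C lay within or below the 12 h range. The summed level of the 11 genes was 607, 543, 461, 1945 and 597 CPM at 12 h and 2364, 530, 357 and 5259 CPM at 24 h, against 473 to 3075 CPM in the shams. Without MCAO 24 h D 0 were higher and the median was 0.18, without MCAO 12 h D all 11 were higher, and without MCAO 24 h B or C 9 and 10 were, while the median of the shams was -1.14. Striatum lies beneath the cortex and within the hemisphere that the paper's Results name as the bulk tissue. How much of it each dissection held was not tested.

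Of 12 interneuron genes, 6 log2 fold changes were positive and 6 negative, with a median of -0.05. At an unadjusted p under 0.05, 0 were lower and 3 higher, *Slc32a1*, *Gad1* and *Gad2*, which load or make the transmitter GABA and are used by striatal projection neurons too. *Slc32a1* was at 87.1, 63.1, 62.1, 34.1 and 75.6 CPM at 12 h and 192, 88.8, 74.98 and 205 CPM at 24 h (log2 fold change 1.11, adjusted p 0.462), and *Gad1* at 45.6, 112, 161, 45.3 and 78.6 CPM at 12 h and 119, 133, 92.8 and 301 CPM at 24 h (adjusted p 0.655). Their highest levels were again in MCAO 24 h D, or in D and A, and without D 1 of the 12 was higher. Of 14 pan-neuronal and excitatory genes 0 were higher or lower, with a median of -0.06, and among genes of injured neurons *Nts* was higher and *Klf6* and *Sox11* lower. *Sox11*, a transcription factor of regrowing axons, was at 182, 173, 225, 221 and 170.3 CPM at 12 h and 116, 158, 112 and 144 CPM at 24 h, without overlap (log2 fold change -0.56, adjusted p 0.672), and the log2 fold change of Sham 24 h over Sham 12 h was -0.47.

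Of 6 red blood cell genes tested, 5 were lower at an unadjusted p under 0.05, and the median was -1.64. *Hba-a1*, alpha globin, was at 29.3, 71.8, 447, 376 and 300.2 CPM at 12 h and 17.8, 82.7, 25.4 and 84.9 CPM at 24 h (log2 fold change -2.23 ± 0.67, adjusted p 0.499). *Hbb-bs*, beta globin, was at 20.4, 56.8, 723, 605 and 364 CPM at 12 h and 32.3, 105, 64.4 and 271 CPM at 24 h (adjusted p 0.666), and *Alas2*, the erythroid enzyme of heme synthesis, at no more than 5.74 CPM in any of the 9. The globins were high in MCAO 12 h C, D and E and within or below the 24 h range in A and B, and alpha and beta globin each have near-identical copies that may share reads. The count was 1 without MCAO 12 h C or MCAO 24 h A, 2 without MCAO 24 h B or C, and 3 without MCAO 12 h D or with the block. It was 3 with DESeq2, spike-in scaling or filterByExpr, and 2 in the fits of 2 or 4 groups. The mice were perfused before dissection, and how fully blood was washed out was not tested.

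Of 16 endothelial genes, *Slco1a4*, an organic anion carrier of the blood-brain barrier, was higher (0.58, adjusted p 0.655). It was at 37.8, 31.1, 10.9, 34.7 and 27.99 CPM at 12 h, 58.6, 35.5, 31.8 and 45.8 CPM at 24 h and 49.5 to 79.6 CPM in the shams, and was called lower than sham at 12 h (-1.12, adjusted p 0.00349). *Cldn5*, the tight junction protein claudin 5, was at 5.19, 7.28, 6.78, 22.4 and 2.38 CPM at 12 h and 8.07, 3.74, 6.78 and 9.78 CPM at 24 h, with a log2 fold change of -0.30 that turned to 0.36 without MCAO 12 h D. Of 12 mural cell genes, *Acta2* and *Myh11*, of smooth muscle, were higher. Over the single libraries left out 0 to 4 were, with 0 without MCAO 24 h D and 4 with the block. *Acta2* was at 4.08, 10.2, 8.87, 10.6 and 16.1 CPM at 12 h and 26.3, 7.48, 3.39 and 52.5 CPM at 24 h, highest in A and D.

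**Figure D3:**
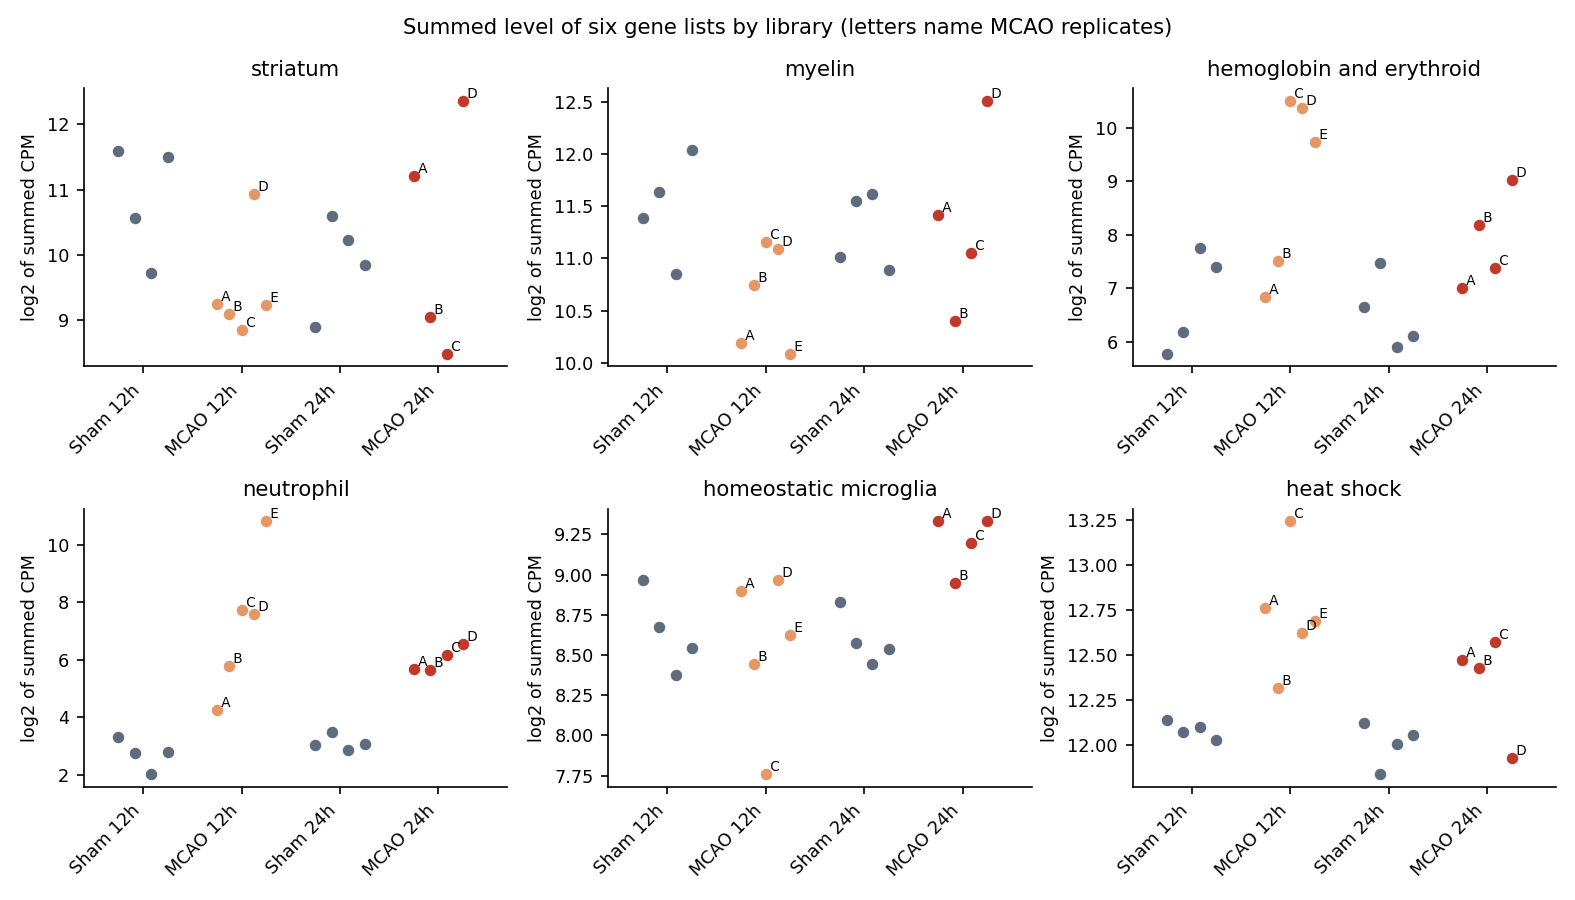
Summed level of 6 gene lists as log2 CPM (y axis) in each library of Sham 12 h, MCAO 12 h, Sham 24 h and MCAO 24 h (x axis), with replicate letters at the MCAO points. The neutrophil sum is highest in MCAO 12 h E at 1797 CPM, the heat shock sum in MCAO 12 h C, and the myelin and striatum sums in MCAO 24 h D at 5822 and 5259 CPM, while the microglia sum of 3 of 4 MCAO 24 h libraries lies above all other points.

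Genes of respiration and translation leaned higher at 24 h by small amounts. Of 18 nuclear genes of the respiratory chain, 3 were higher and 0 lower, and 16 log2 fold changes were positive, with a median of 0.16. *Atp5g1*, a subunit of the membrane rotor of ATP synthase, was at 37.5, 55.8, 37.6, 65.3 and 35.7 CPM at 12 h and 67.5, 60.3, 63.97 and 64.8 CPM at 24 h (log2 fold change 0.47 ± 0.16, adjusted p 0.552). *Atp5b*, its catalytic beta subunit, was at 349, 391, 416, 228 and 465 CPM at 12 h and 551, 479, 401 and 528 CPM at 24 h (0.41, adjusted p 0.655). Of 20 ribosomal protein genes, 2 were higher and 0 lower and 19 log2 fold changes were positive, with a median of 0.18. Over the single libraries left out the count of ribosomal genes ranged from 0 to 4. Within its group MCAO 24 h A was the highest library for 11 of the 18 respiratory and 11 of the 20 ribosomal genes. *Rpl3* had a log2 fold change of 0.33 and *Rps2* of 0.92, and the levels of *Rps2* may include reads of its pseudogenes. Both medians stayed above that of all genes with spike-in scaling, 0.37 and 0.38 against 0.18.

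Genes of the circadian clock were followed because the groups were collected 12 h apart in the day if surgery was done at the same hour, which the labels do not give. Of 18 tested, 1 was higher and 3 lower. *Dbp*, an output gene of the clock, was at 19.6, 30.1, 39.1, 35.9 and 28.6 CPM at 12 h and 46.3, 44.4, 57.2 and 82.5 CPM at 24 h, without overlap (log2 fold change 0.91 ± 0.26, adjusted p 0.462). The shams were at 49.1, 43.8, 75.05 and 113 CPM at 12 h and 45.1, 116, 79.9 and 102 CPM at 24 h, and *Dbp* was called lower than sham at MCAO 12 h (-1.21, adjusted p 0.00645). The lower ones were *Clock* (-0.32), *Rorb* (-0.63) and *Nfil3* (-0.76), with adjusted p of 0.659, 0.683 and 0.694. With spike-in scaling the counts were 3 higher and 0 lower, and without MCAO 12 h C or D or MCAO 24 h A 2 higher and 1 lower. No clock gene had an unadjusted p under 0.05 between the shams.

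Of 13 genes induced by glucocorticoids 3 were lower, *Zbtb16*, *Nfkbia* and *Pdk4*. *Zbtb16* was at 24.1, 43.7, 37.04, 18.8 and 13.7 CPM at 12 h and 7.65, 12.2, 24.1 and 8.56 CPM at 24 h (log2 fold change -1.05, adjusted p 0.564). Of 25 immediate early genes *Fosb* was higher (1.26, adjusted p 0.666) and *Klf6* lower (-0.38, adjusted p 0.66), and 0 were higher or lower without MCAO 24 h D. *Fosb* was at 4.08, 19.4, 15.7, 19.4 and 13.7 CPM at 12 h and 10.2, 33.6, 13.1 and 83.1 CPM at 24 h, highest in MCAO 24 h D. The lists of interleukin-6 signalling, antigen presentation, ERK feedback, metalloproteinases, angiogenesis, TGF-beta, cell death, cell cycle, border macrophages and lymphocytes held 0 members at an unadjusted p under 0.05, with medians from -0.08 to 0.43.

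**Figure D4:**
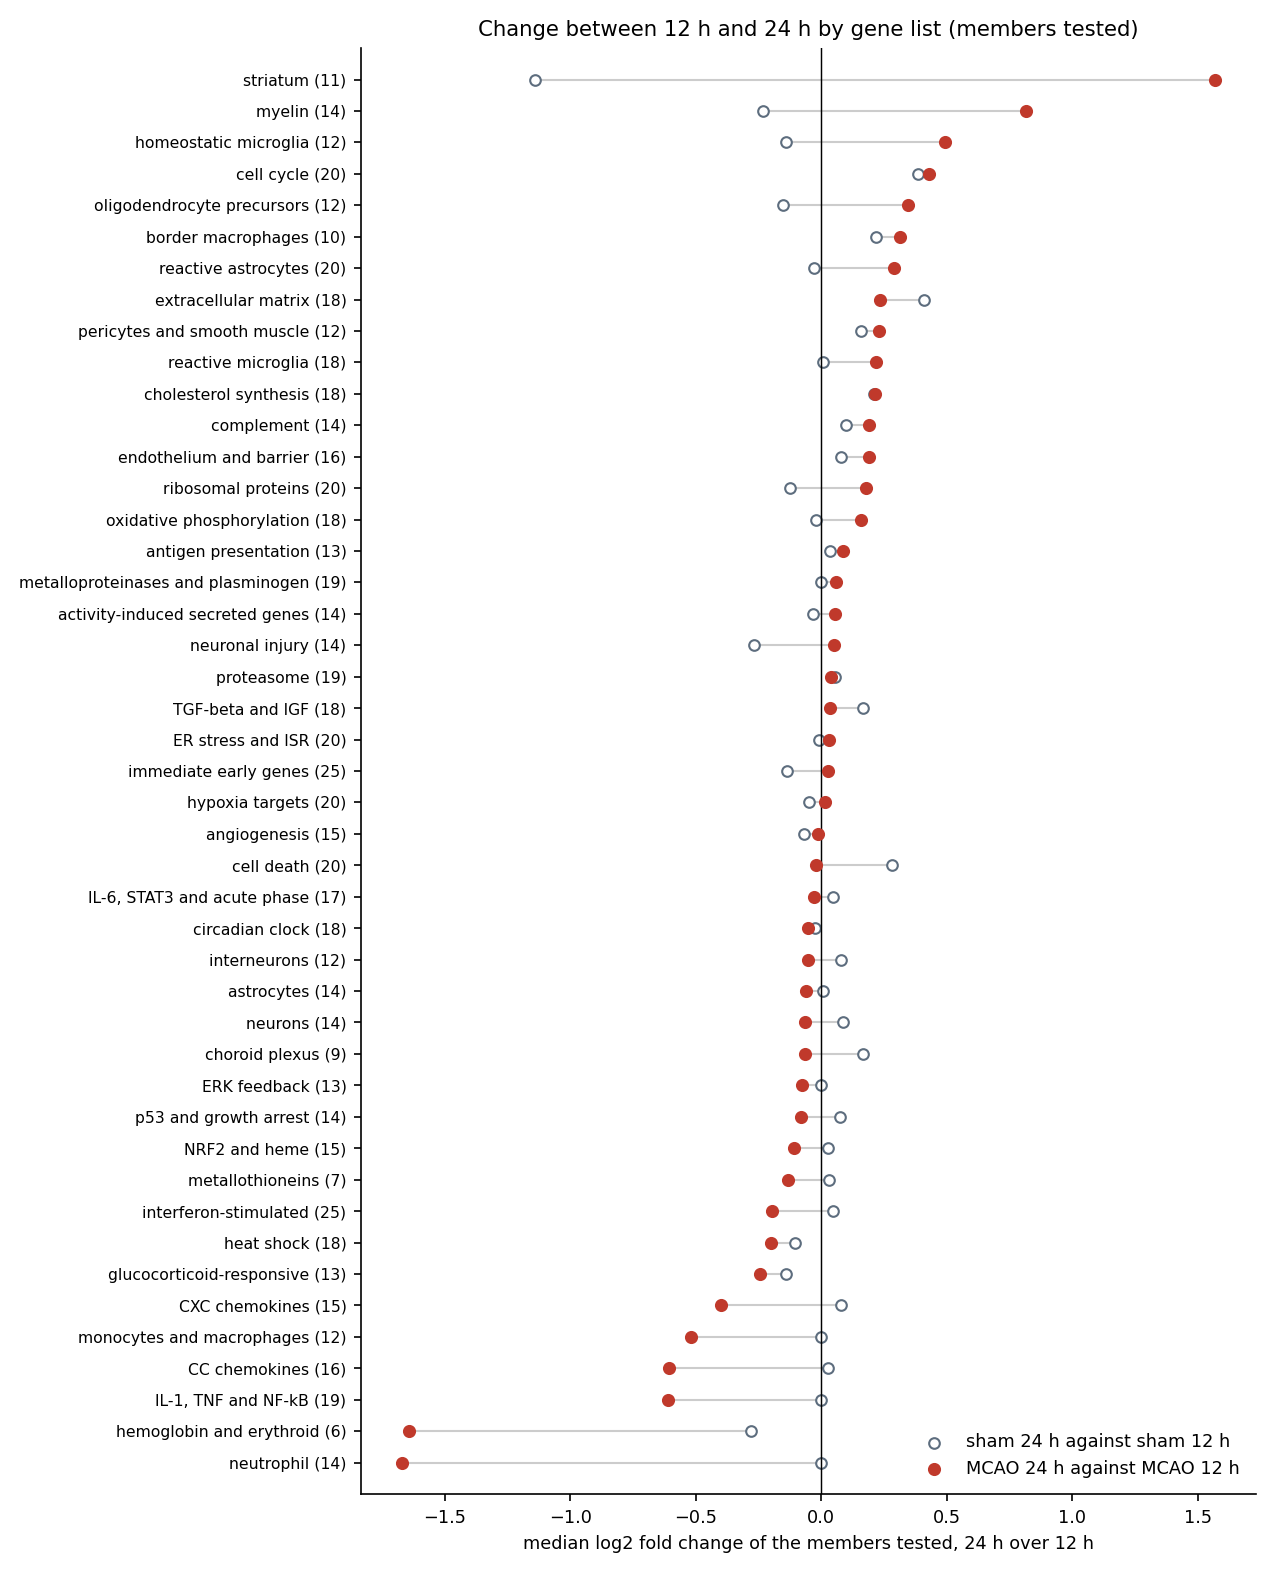
Median log2 fold change of 24 h over 12 h (x axis) for each gene list (y axis), filled red for MCAO and open for sham. The MCAO medians run from -1.67 for neutrophil genes and -1.64 for red blood cell genes to 1.57 for striatal genes, where the sham median is -1.14. The neutrophil median is -0.66 without MCAO 12 h E and the striatal one 0.18 without MCAO 24 h D.

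The spread between libraries was wider at MCAO 12 h than at MCAO 24 h for most genes. The median standard deviation of log2(CPM + 1) over the 13874 genes of at least 2 CPM was 0.41 at 12 h and 0.33 at 24 h, and 8839 of the genes had the larger value at 12 h. It was 1.66 against 0.54 for neutrophil genes, 1.15 against 0.45 for interferon-stimulated genes and 0.68 against 0.36 for heat shock genes. Myelin (0.64 against 0.98) and striatal genes (1.22 against 1.94) varied more at 24 h. These values are given as a description of the 5 and 4 libraries.

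Between the shams of the same times, 1 gene was called, or 0.00501% of the genes tested, and 736 (3.69%) had an unadjusted p under 0.05. The gene was *Synpr*, which encodes synaptoporin, a synaptic vesicle protein, at 5.03, 4.17, 13.3 and 4.29 CPM in Sham 12 h and 49.3, 36.7, 58.5 and 68.2 CPM in Sham 24 h (log2 fold change 2.93 ± 0.46, adjusted p 0.00123). After MCAO it was at 81.95, 48.5, 24.5, 24.1 and 50.03 CPM at 12 h and 93.5, 123, 96.2 and 79.4 CPM at 24 h (1.08, adjusted p 0.552). *Synpr* lies 54535 bases from *Sntn* on the same chromosome, and the log2 fold change of *Sntn* was negative in both pairs of groups (-1.93 in sham, adjusted p 1.0). *Synpr* was not called without Sham 12 h A, B or D or Sham 24 h D, nor in the fit of the sham groups alone. *Gm15446* was at 0 in all 4 Sham 12 h libraries and at 3.56, 5.69, 2.44 and 2.1 CPM in Sham 24 h (adjusted p 0.0186). Among genes of at least 2 CPM the next by p were *Mtif2* (-0.98), *Rbm3* (2.1), a cold-induced RNA-binding protein, and *Dstyk* (-0.54), with adjusted p of 0.856, 1.0 and 1.0.

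The change of MCAO over sham between the times was tested as an interaction. It was called for 2 genes, or 0.01% of those tested, and 1015 (5.08%) had an unadjusted p under 0.05. One of them was *Tmem181b-ps* (adjusted p 5.89e-05), which was also called lower between the MCAO groups. Among genes of at least 2 CPM the next by p were *Me2*, a mitochondrial malic enzyme (2.27 ± 0.49, adjusted p 0.208), *Nudt19*, a peroxisomal hydrolase (0.95 ± 0.26), *Fat4*, a cadherin (-2.39 ± 0.65), and *Slc22a3*, a transporter of organic cations (2.89 ± 0.81), the last 3 with an adjusted p of 0.973. *Me2* was at 4.45, 4.37, 7.82, 8.82 and 6.55 CPM at MCAO 12 h and 11.1, 10.3, 9.74 and 27.5 CPM at MCAO 24 h, without overlap, and at 11.7, 10.4, 23.3 and 19.1 CPM in Sham 12 h and 5.94, 12.01, 5.49 and 7.34 CPM in Sham 24 h. Its levels thus lay below sham at 12 h and, in 3 of 4 libraries, within the range of Sham 24 h at 24 h.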

How the data were processed

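Bulk 3′ RNA sequencing libraries (QuantSeq, single-end) were analysed, of which MCAO 12 h (5), MCAO 24 h (4), Sham 12 h (4) and Sham 24 h (4) enter the comparisons, grouped by their labels. The authors trimmed the reads, removed ribosomal reads, aligned them with STAR 2.5.2b to GRCm38 with spike-in sequences and assigned them to Gencode genes with htseq-count (union mode). Their deposited files hold these raw counts, 1 file a library. Rows of reads in no feature were left out, and equalled 22.6 to 30.6% in the MCAO libraries. A deposited table of normalized log2 values was not used here. No molecular identifiers were used in these counts as far as the sources state, so intervals and floors cover counting error only, and p-values measure the spread between libraries, which may in part be technical.

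Genes with more than 10 counts over the 48 libraries were normalized by TMM and fitted with the 11 groups in 1 model by the quasi-likelihood method of edgeR 4.0.16 (R 4.3.3). P-values were adjusted by Benjamini and Hochberg over all 19970 genes. CPM are counts scaled to 1000000 gene counts without spike-ins, with library sizes adjusted by TMM. Fold changes are 24 h over 12 h, or MCAO over sham. Positions are from Gencode vM21, matched to 46488 of 46983 genes, and promoters from RefSeq for 13079 of the genes tested. Alternatives were DESeq2 1.42.0, its size factors, spike-in scaling, other filters and groups in the fit, a looser threshold, the replicate letter as a block, each library left out in turn and, chosen after seeing the data, MCAO 12 h E and MCAO 24 h D left out together. For MCAO 12 h and MCAO 24 h, deviations of same-letter libraries from their group means correlated at 0.519, 0.236, 0.144 and 0.151 for A to D. All were above 0.1 over 9880 genes. The labels do not state pairs, MCAO 12 h C correlated best with MCAO 24 h D, and MCAO 12 h E has no partner. The block is therefore an alternative setting and not a known pairing. In the other pairs of groups the same-letter correlations were not all above 0.1. No 2 libraries held identical counts.

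Genes were named by a rule: called genes without overlap and of at least 2 CPM, filled to 6 a direction by smallest p; up to 4 genes a list, called or of smallest p; the smallest p in the shams and the interaction; clock genes; and tissue markers. Other list members with an unadjusted p under 0.05 were named after their values were seen, as were the genes called against sham at both times and *Hspa1a*, *Hmox1*, *Ccl4*, *Cldn5*, *Cx3cr1*, *P2ry12* and *Drd1*. The comparison, the 46 lists and the tests were chosen with earlier results of these data known. A few genes are not reported here. Figures were drawn with matplotlib 3.10.9 (Python 3.11.15).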

Additional observations from a re-analysis of the deposited data

Results flagged for a closer look

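In 168 checks of a named gene in 1 MCAO group, 22 had a library set apart from the rest by more than Dixon's 95% limit. The limit flags about 1 in 20 in independent checks of normally distributed values. These checks were of CPM without a log, some genes were named after their values were seen, and many share the same library. The 22 were therefore not set against chance. The causes were not tested. At 12 h, library E stood above the other 4 for *S100a8* (758.728 CPM against at most 106.472), *S100a9* (903.446), *Cxcl2* (366.262), *Il1b* (232.859), *Il1rn* (123.278), *Ccl3* (58.959) and *Rsad2* (219.162). Library C stood above the others for the stress genes *Dnajb1* (235.774 CPM), *Hspa1a* (722.971) and *Hmox1* (79.287). Library D did so for *4930526A20Rik* (48.824 CPM), *Drd1* (217.649) and *Cldn5* (22.353), and library A for *Nudt19* (61.186) and *Ttr* (37.083).

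At 24 h, library D stood above the other 3 for *Nfil3* (10.388 CPM) and *Me2* (27.499), and library B below them for *Cx3cr1* (204.708 CPM against at least 238.509). For 4 genes 1 library of MCAO 24 h held 1 to 3 reads and the other 3 none, at 0.425 CPM for *Tmem181b-ps*, 0.425 for *Gm10039*, 0.935 for *Gm15772* and 1.271 for *Gm12892*.

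The change of MCAO over sham differed between 12 h and 24 h for *Tmem181b-ps* (adjusted p 5.89e-05 by edgeR), which was all but absent in the 4 MCAO 24 h libraries and present in the 13 others of the 4 groups.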

How the results depend on the processing

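Between MCAO 24 h and MCAO 12 h the 3 called genes became 7 at an adjusted p under 0.05, 7 with DESeq2 and 9 without a filter, and 2 to 4 with single libraries left out. The replicate block kept the same 3 and, beside the list counts given with it, changed no other call between these groups. Between the shams the 1 call became 2 at an adjusted p under 0.05, 0 in the fit of these groups alone (443 genes at an unadjusted p under 0.05) and 0 to 1 with single libraries left out. Against sham at 12 h the 82 calls became 277 at an adjusted p under 0.05, 179 with DESeq2, 171 without a filter, 13 in the fit of these groups alone, 45 with 4 groups, 53 with the block and 34 without MCAO 12 h E and MCAO 24 h D, and 21 to 102 with single libraries left out. At 24 h the 18 became 46, 44, 55 and 51 under the first 4 of these, 39 with spike-in scaling, 8 without both libraries and 6 to 21 with single libraries left out. The interaction kept 2 to 3 calls under the alternatives run.

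Of the genes named with values, 5 turned direction. *Rsad2* ranged from -2.54 to 0.42 with single libraries left out and was 0.22 without both libraries. *Hspa1a* ranged from -2.02 to 1.08, *Hmox1* from -0.65 to 0.54 and *Cldn5* from -0.51 to 0.36. These 4 turned only without the library in which each stood apart, MCAO 12 h E, C, C and D. *P2ry12* was -0.022 without MCAO 12 h D, -0.087 without MCAO 24 h A and up to 0.89 without MCAO 12 h A. *Gm10039* lost its call in 8 settings and was dropped by filterByExpr. At this depth and with 4 and 5 libraries, differences of under 0.97 log2 units in genes of 2 to 10 CPM were mostly not detectable at an unadjusted p under 0.05. Larger ones could also fail to be called, as *Ly86* did with 1.86 (adjusted p 0.386 by edgeR).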

Other observations

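Some genes named above had low and high levels in other groups of both treatments. The pseudogene *4930526A20Rik* was under 5 CPM in 32 of the 48 libraries, between 5 and 20 CPM in 2 and at 20 CPM or more in 14. The 14 were all 5 MCAO 12 h and all 4 Sham 3 d libraries, 3 of MCAO 7 d, and 1 each of MCAO 3 d and the intact control, while MCAO 3 h, Sham 3 h, Sham 12 h, Sham 24 h, Sham 7 d and MCAO 24 h held none.

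*Synpr* and its neighbour *Sntn* on the same chromosome had levels that varied among the sham groups and among the MCAO groups. The median level of *Synpr* was 3.02 CPM in MCAO 3 h and 4.66 CPM in Sham 12 h, and from 36.8 to 99.4 CPM in the 9 other groups. The median of *Sntn* was 0 in MCAO 24 h, MCAO 3 d, Sham 3 d and the intact control, and highest in Sham 12 h (11.4 CPM) and MCAO 3 h (7.23 CPM), the groups where *Synpr* was lowest. *Tmem181b-ps*, all but absent at MCAO 24 h, had group medians from 5.76 CPM in Sham 3 d to 42.5 CPM in MCAO 3 h. These levels are values only and no comparison of the groups was tested.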
